A study of Mus musculus with 6 samples.

Results

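The Bcl2 family decides at the outer membrane of mitochondria whether a cell enters apoptosis. Anti-apoptotic members such as Bcl2, Bcl-xL (Bcl2l1), Mcl1 and A1 (Bcl2a1) hold the pore-forming effectors Bax and Bak1 in check, and BH3-only members such as Bim (Bcl2l11), Bid and Puma (Bbc3) release or activate those effectors. In macrophages and osteoclasts, M-CSF and RANKL are survival signals as well as differentiation signals, and in mouse osteoclasts Bim is known to limit lifespan. The account below covers 10 genes of the family, chosen by symbol: Bcl2, Bcl2l1, Bcl2l11, Bcl2a1b, Bcl2a1d, Mcl1, Bax, Bak1, Bid and Bbc3. They are 10 of the 55487 genes in the deposited count table and 10 of the 12930 genes that passed the filter on low counts.

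The RNA came from RAW264.7, a line of mouse macrophages that forms osteoclast-like cells under RANKL, and both RANKL and M-CSF had been given to all 6 samples. The first group held 3 samples with the genotype RhoA knockout, titled SMART-Cas9, in which the small GTPase RhoA had been targeted. The second held 3 wild-type controls, which the design text calls untreated. No group carried Cas9 without the targeting of RhoA, so the effects of Cas9 treatment and of the edit cannot be told apart. The sources used here say neither whether the edited cells were 1 clone or a pool, nor whether the samples came from separate cultures. The p-values therefore reflect the spread among these samples alone, and that spread may be technical.

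Rhoa itself did not fall. In the libraries labelled RhoA knockout it stood at 34.2, 29.9 and 31.5 CPM (counts relative to the TMM-scaled library size), against 21.4, 25.8 and 24.4 CPM in the controls. Its log2 fold change was 0.41 ± 0.12 (SE; edgeR adjusted p = 0.0136), and the call was lost without control replicate 1 (adjusted p = 0.0645) or without RhoA knockout replicate 1 (0.0741). An edit need not lower the transcript, and the groups are named here by their labels. Library totals ran from 60198645 to 81830819 counts. The libraries numbered 3 stood apart by a chi-square statistic of raw counts, given without a p-value. Against the others of their group they gave 80.8 to 100.9 per degree of freedom, while the remaining pairs gave 26.3 and 20.7. Abundant genes weigh heavily in this statistic. All 8 macrophage markers passed the filter, and 3 were called higher and 4 lower. Their summed level was 80553 to 113207 CPM in the libraries labelled RhoA knockout and 17411 to 19269 CPM in the controls, most of it Lyz2. Of the osteoclast markers 5 of 8 passed the filter, 1 called higher and 3 lower. They summed to 20.9 to 21.5 CPM against 19.7 to 24.0 CPM, and 2 of those 8, Calcr and Oscar, had no count. Markers of neutrophils, T cells, B cells, fibroblasts and endothelial cells summed to at most 0.473 CPM in a library, and epithelial markers to at most 1.44 CPM, in control replicate 1. The part of these marker levels in the results below was not tested.

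Bcl2a1b and Bcl2a1d belong to a set of near-identical mouse copies on chromosome 9, so what was counted depends on short differences in sequence. Of the other copies, Bcl2a1a was well counted and Bcl2a1c held at most 3 counts in a library. The coding sequences of Bcl2a1b and Bcl2a1d differ at 6 of 516 positions, those of Bcl2a1b and Bcl2a1a at 11, and those of Bcl2a1d and Bcl2a1a at 7. Coding bases 1 to 100 from GENCODE M21 are shown because no other stretch of that length holds more of these positions and reads from them can tell the copies apart. Capitals mark the 7 positions at which the 3 copies are not all the same.
Bcl2a1b: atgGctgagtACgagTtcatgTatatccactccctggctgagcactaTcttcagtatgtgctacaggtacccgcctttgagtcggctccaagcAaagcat
Bcl2a1d: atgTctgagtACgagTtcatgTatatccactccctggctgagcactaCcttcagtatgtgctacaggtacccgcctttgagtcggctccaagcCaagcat
Bcl2a1a: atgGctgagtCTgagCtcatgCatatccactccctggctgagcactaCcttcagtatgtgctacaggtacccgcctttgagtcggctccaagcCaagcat
Over the whole transcripts, 20.8% of the 50-base windows of Bcl2a1b and 20.5% of those of Bcl2a1d occur neither in another copy nor in the gene model Gm29094. For windows of 150 bases the shares were 58.1% and 69.7%. Gm29094 shares 401 bp of the exons of Bcl2a1b on the same strand, so the shares of Bcl2a1b are lower than against the copies alone. The sources used here give neither the read length nor what was done with reads matching several copies, so the split of counts between the copies is uncertain and their sum is given beside them.

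The copies also resemble each other upstream of their starts. The promoter table from RefSeq (build GRCm38.p6), which spans 250 bases before to 50 bases after each start, was searched on both strands for 3 motifs of factors known to act on family genes: AP-1 (TGANTCA), FOXO (TGTTTAC) and NF-kB. The next 3 stretches are shown because all 3 copies hold a match to this AP-1 string, in capitals. Its middle letter N allows any base, and the base found there was A in all 3.
Bcl2a1b: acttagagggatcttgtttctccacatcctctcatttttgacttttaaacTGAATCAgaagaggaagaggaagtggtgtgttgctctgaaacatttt
Bcl2a1d: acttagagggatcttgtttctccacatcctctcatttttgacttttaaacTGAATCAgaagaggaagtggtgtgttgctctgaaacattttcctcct
Bcl2a1a: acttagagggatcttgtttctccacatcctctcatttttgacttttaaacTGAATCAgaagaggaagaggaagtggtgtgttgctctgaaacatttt
They lie at chr9:89199059-89199155 on the plus strand, chr9:88731918-88732014 on the minus strand and chr9:88956750-88956846 on the plus strand. The stretches of Bcl2a1b and Bcl2a1a are identical over all 97 bases, and that of Bcl2a1d is identical for its first 67 bases and then lacks a repeated unit of 6 bases. An AP-1 match was found in 7.8% of all 32851 promoter windows. The copies share their origin, so the 3 matches are not separate observations. Among the other members, Bcl2l1 had an NF-kB match in the window of 1 of its 3 starts, which overlaps 1 of its own exons.
Bcl2l1: tgtttgtgGGGGGTCTCCagcatacgcctc
This site lies at chr2:152830938-152830967 on the minus strand. NF-kB matches were found in 8.5% of all windows, and Bbc3 had them as well. The 15 windows of the 10 members held a match to each motif in 2 windows, and FOXO matches, found in 3.6% of all windows, were in those of Bcl2l11 and Bbc3. A match is a string of letters and not a measured binding site.

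Of the 10 members, 5 were lower and 2 were higher in the libraries labelled RhoA knockout at an edgeR adjusted p of 0.05, and 3 did not pass. Over all genes tested 43.2% were called, 22.3% lower and 21.0% higher. The share of members called was above this background and that of members called higher was close to it. The members were chosen with earlier results of these data known, and the near-identical Bcl2a1b and Bcl2a1d are counted separately. The comparison is therefore a description and not a test. The median log2 fold change was -0.93 over the members and -0.03 over all genes tested. The libraries of the groups did not overlap for 9 of the 10 members, and for 55.8% of all genes. Without both libraries numbered 3, an alternative added once the data had been seen, the same 7 members were called in these directions. In bulk RNA, fewer cells with a transcript and less of it per cell cannot be told apart.

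**Figure D1:**
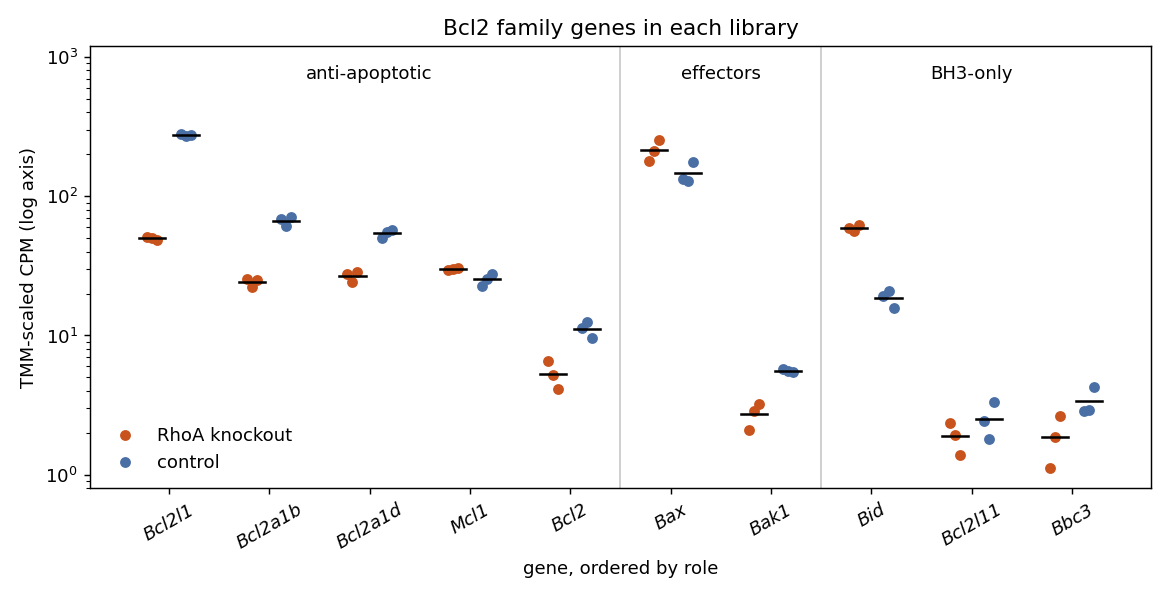
Level of each of the 10 Bcl2 family genes in each library, in TMM-scaled CPM on a log axis, with RhoA knockout libraries on the left of each pair, control libraries on the right and a line at each group's mean (3 libraries each). The groups are far apart for Bcl2l1 and Bid and overlap for Bcl2l11.

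Among the anti-apoptotic members, 4 of 5 fell, with Bcl2a1b and Bcl2a1d counted separately, and Mcl1 did not pass. Bcl2l1 (ENSMUSG00000007659.18, chromosome 2, 152780668 to 152831728, minus strand of GRCm38) encodes Bcl-xL, which guards many cell types after differentiation. It stood at 51.1, 50.0 and 48.8 CPM across the libraries labelled RhoA knockout, against 279, 271 and 277 CPM in the controls. Within each group the 3 libraries were close to each other, and the groups were far apart. Its log2 fold change of -2.46 ± 0.10 (SE; edgeR adjusted p = 8.43e-09), or a 5.52-fold lower level, was the largest change in size among the members, and over the alternatives it lay between -2.50 and -2.29.

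The A1 copies, whose protein is an anti-apoptotic factor of leukocytes known to be induced through NF-kB, fell as well. Bcl2a1b (ENSMUSG00000089929.1, chromosome 9, 89199209 to 89207827, plus strand) stood at 25.5, 22.3 and 25.2 CPM across the libraries labelled RhoA knockout, against 68.1, 61.1 and 71.0 CPM in the controls. Bcl2a1d (ENSMUSG00000099974.1, chromosome 9, 88723285 to 88731914, minus strand) stood at 27.8, 24.1 and 28.5 CPM, against 50.4, 55.2 and 57.1 CPM in the controls. Each library labelled RhoA knockout was below each control for both copies. The log2 fold changes were -1.45 ± 0.11 for Bcl2a1b (adjusted p = 1.05e-06) and -1.02 ± 0.11 for Bcl2a1d (1.8e-05). The further copy Bcl2a1a, which is not one of the 10 members, stood at 7.26, 7.07 and 8.82 CPM, against 26.6, 27.7 and 29.5 CPM in the controls, a log2 fold change of -1.86 ± 0.14 (7.25e-07).

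With the counts of all Bcl2a1 copies summed, the level was 60.6, 53.5 and 62.4 CPM across the libraries labelled RhoA knockout, against 145.2, 144.0 and 157.7 CPM in the controls. The log2 fold change of this sum was -1.34 ± 0.11 (edgeR adjusted p = 1.29e-06). A split of reads between the copies leaves this value unchanged. It could still depend on the counting if reads matching several copies were dropped or counted for each copy. The balance between copies differed too. In the libraries labelled RhoA knockout the ratio of Bcl2a1b to Bcl2a1d counts was 0.917, 0.924 and 0.885, and it was 1.35, 1.11 and 1.24 in the controls. Bcl2a1b was thus the lower counted of the pair in each library labelled RhoA knockout and the higher counted in each control. These ratios were not tested. The gene model Gm29094, which held at most 32 counts in a library, shares 401 of the 817 bp of exon of Bcl2a1b on the same strand. The sources used here do not say how reads in this overlap were counted. The level of Bcl2a1b, the summed level and these ratios could depend on it.

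**Figure D2:**
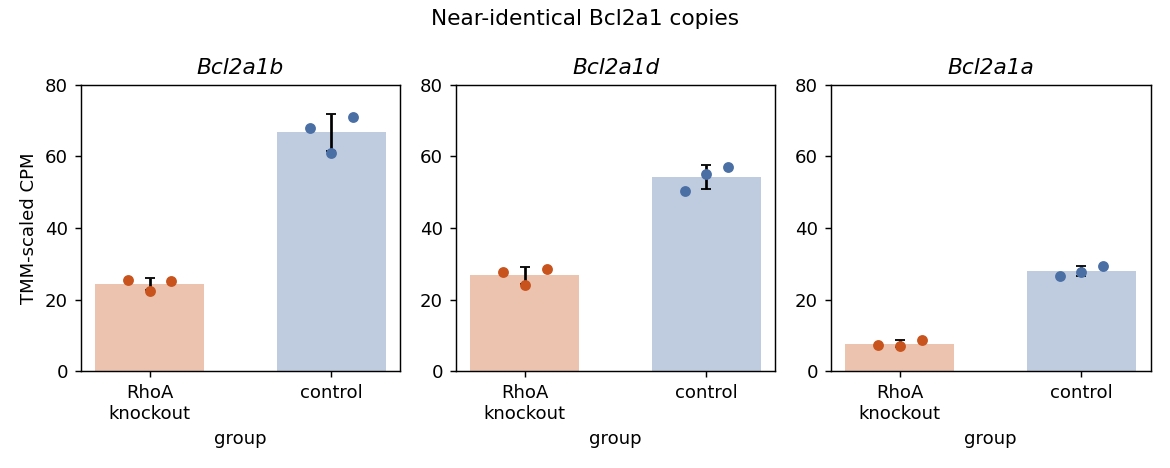
Levels of Bcl2a1b, Bcl2a1d and Bcl2a1a in TMM-scaled CPM by group, with points for libraries, bars for the group mean and error bars for the SD (n = 3 each). For all 3 copies the RhoA knockout libraries lie below the controls, with means of 24.3, 26.8 and 7.72 CPM against 66.7, 54.3 and 27.9 CPM.

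Bcl2 (ENSMUSG00000057329.7, chromosome 1, 106538178 to 106714274, minus strand), the founding member, stood at 6.56, 5.22 and 4.15 CPM across the libraries labelled RhoA knockout, against 11.3, 12.5 and 9.52 CPM in the controls. The groups did not overlap. Its log2 fold change was -1.06 ± 0.20 (edgeR adjusted p = 0.000999), or -0.69 with a correction for exon length, and it kept its call in every alternative.

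Mcl1 (ENSMUSG00000038612.16, chromosome 3, 95658788 to 95663176, plus strand) encodes a short-lived protein on which myeloid cells are known to depend. It stood at 29.6, 30.2 and 30.6 CPM across the libraries labelled RhoA knockout, against 22.6, 25.6 and 27.7 CPM in the controls. The groups did not overlap, but the log2 fold change of 0.25 ± 0.12 did not pass (edgeR adjusted p = 0.101). It passed with library totals in place of TMM (0.43, adjusted p = 0.0255) and without control replicate 3 (0.32, 0.0436), and it was positive in all 16 alternatives.

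Dividing by the combined length of all annotated exons of a gene allows a rough comparison of levels between genes. The transcripts present may be shorter, by amounts that differ between genes. On this scale the 5 anti-apoptotic members summed to 84.0, 75.6 and 83.8 CPM per kb of exon across the libraries labelled RhoA knockout. The controls summed to 210.4, 207 and 223 CPM per kb. The summed level was lower in each library labelled RhoA knockout. Bcl2l1 made up 13.5 ± 0.893% of this sum, against 28.2 ± 0.938% in the controls (SD, n = 3 each). Mcl1 made up 10.9 ± 0.713% against 3.47 ± 0.282%, so its share was larger while its level did not pass the test. The shares of Bcl2a1b were 36.7 ± 0.535% and 38.3 ± 1.82%, and those of Bcl2a1d 38.2 ± 1.17% and 29.5 ± 1.60%. Bcl2 held under 1% in each library. The sum leaves out the copy Bcl2a1a, at 9.42 CPM per kb in the libraries labelled RhoA knockout and 34.1 CPM per kb in the controls. All the shares depend on this choice and on how reads were assigned to the copies, and they were not tested.

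**Figure D3:**
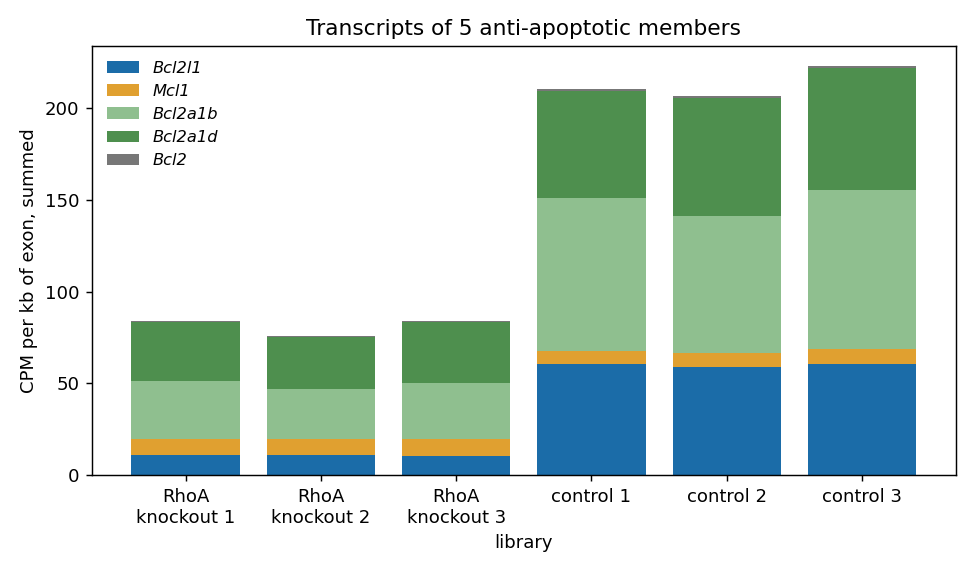
Transcript levels of the 5 anti-apoptotic members stacked for each library, in CPM per kb of exon, with the RhoA knockout libraries on the left and the controls on the right. The stacks reach 75.6 to 84.0 in the RhoA knockout libraries and 207 to 223 in the controls, and the Bcl2l1 part differs most in share, by percentage points.

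The effectors went in opposite directions. Bax (ENSMUSG00000003873.11, chromosome 7, 45461697 to 45466898, minus strand), which moves from the cytosol to mitochondria when activated, stood at 179.9, 212 and 252 CPM across the libraries labelled RhoA knockout, against 132, 129 and 176 CPM in the controls. The groups did not overlap, but the highest control came within a few CPM of the lowest library labelled RhoA knockout. Its log2 fold change was 0.56 ± 0.15 (edgeR adjusted p = 0.0105). The call was lost without control replicate 1 (0.49, adjusted p = 0.0594) or without control replicate 2 (0.46, 0.0638). With a correction for exon length the value was 0.34 (0.0494).

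Bak1 (ENSMUSG00000057789.14, chromosome 17, 27019810 to 27029009, minus strand), the effector that resides in the mitochondrial membrane, stood at 2.11, 2.89 and 3.21 CPM across the libraries labelled RhoA knockout, against 5.75, 5.52 and 5.50 CPM in the controls. All 3 libraries labelled RhoA knockout were lower. The log2 fold change was -1.03 ± 0.23 (edgeR adjusted p = 0.00319). Both annotated Ggnbp1 genes overlap exons of Bak1 on the other strand, by 177 and 437 bp of its 2407 bp, and the sources used here do not give the strand setting of the counting. In the libraries labelled RhoA knockout the first held 185, 210 and 432 counts, against 171, 26 and 155 in the controls. The second held 28, 65 and 59 counts against 17, 80 and 0, while Bak1 held 173, 258 and 244 counts against 444, 323 and 324. The level of Bak1 is uncertain for this reason.

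Bid was the BH3-only member with the clearest difference and the member with the largest rise. Bid (ENSMUSG00000004446.12, chromosome 6, 120891930 to 120916853, minus strand) is cut by caspase-8 and so links death receptors to mitochondria. It stood at 59.3, 56.5 and 62.2 CPM across the libraries labelled RhoA knockout, against 19.2, 20.9 and 15.9 CPM in the controls. The groups were well apart, and the log2 fold change was 1.67 ± 0.13, or 3.17-fold (edgeR adjusted p = 8.84e-07). Over the alternatives it lay between 1.53 and 1.83. Its exons overlap those of Bcl2l13 on the other strand by 628 bp, and Bcl2l13 held 346, 336 and 215 counts against 321, 218 and 256 in the controls, far fewer than the 4864, 5052 and 4727 counts of Bid against 1485, 1225 and 935.

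Bcl2l11 and Bbc3 were sparse and did not pass. Bcl2l11 (ENSMUSG00000027381.16, chromosome 2, 128126038 to 128162547, plus strand) encodes Bim and stood at 2.36, 1.94 and 1.38 CPM across the libraries labelled RhoA knockout, against 2.41, 1.79 and 3.31 CPM in the controls. The groups overlapped (log2 fold change -0.40 ± 0.33, edgeR adjusted p = 0.363), and the value was 0.03 without both libraries numbered 3. Bbc3 (ENSMUSG00000002083.13, chromosome 7, 16308393 to 16318205, plus strand), which encodes Puma, a target of p53, stood at 1.12, 1.86 and 2.64 CPM, against 2.89, 2.92 and 4.28 CPM in the controls. Each of its libraries labelled RhoA knockout was below each control, with a log2 fold change of -0.84 ± 0.34 and an adjusted p of 0.0658. It passed as lower in 5 of 16 alternatives, among them the correction for exon length (-1.05, adjusted p = 0.0251) and the fit without RhoA knockout replicate 3 (-1.16, 0.0274).

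The order of levels per kb of exon differed between the groups. In the libraries labelled RhoA knockout Bax led with 136 ± 23.0 CPM per kb, followed by Bcl2a1d with 31.1 ± 2.70, Bcl2a1b with 29.8 ± 2.16, Bid with 16.7 ± 0.794, Bcl2l1 with 10.9 ± 0.260 and Mcl1 with 8.82 ± 0.152 CPM per kb (SD, n = 3). In the controls Bax had 92.6 ± 16.7, Bcl2a1b 81.7 ± 6.23, Bcl2a1d 62.9 ± 3.99, Bcl2l1 60.1 ± 0.914, Mcl1 7.41 ± 0.752 and Bid 5.26 ± 0.726 CPM per kb. Bid thus ranked above Bcl2l1 and Mcl1 in the first group and below both in the second. Bak1, Bbc3, Bcl2 and Bcl2l11 came last in both groups, in this order. Neighbours whose libraries overlapped were Bcl2a1d with Bcl2a1b, Bak1 with Bbc3 and Bbc3 with Bcl2 in the libraries labelled RhoA knockout, and Bax with Bcl2a1b, Bcl2a1d with Bcl2l1 and Bbc3 with Bcl2 in the controls.

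Within-library ratios put these opposite directions on 1 scale, without a test. In the libraries labelled RhoA knockout the ratio of Bax to Bcl2l1 per kb was 10.2, 12.3 and 15.1, against 1.38, 1.39 and 1.85 in the controls. The ratio of Bid to Bcl2l1 was 1.50, 1.46 and 1.65, against 0.0892, 0.0998 and 0.0739 in the controls. The difference in Bcl2l1 (log2 -2.46) was larger in size than that in Bax (0.56) or in Bid (1.67). By distance between profiles of log2 CPM over the 6 libraries, among 3707 well-counted genes, those nearest to Bcl2l1 were Fndc3a and Kpna4 (root mean square distances of 0.050 and 0.102), those nearest to Bid were Rfc2 and Bckdk (0.047 and 0.048), and those nearest to Bak1 were Arf5 and Smim3 (0.072 and 0.081).

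Of 16 other genes of the family, 9 passed the filter. Of these 3 were higher, 2 lower and 4 not called, with a median log2 fold change of 0.27. Of all genes tested, 21.0% were higher and 22.3% lower. Among the anti-apoptotic genes, Bcl2l2 (Bcl-w) fell to 0.980 ± 0.176 CPM, against 2.98 ± 1.03 CPM in the controls (SD, n = 3 each; log2 fold change -1.60 ± 0.35, edgeR adjusted p = 0.00269). It is uncertain, since the gene model Gm20521 shares 594 bp of its exons and held from 0 to 685 counts in a library. The copy Bcl2a1a, given above, was the second that fell.

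Bad, a BH3-only protein that growth factor signalling keeps inactive, rose to 53.3 ± 5.11 CPM, against 27.4 ± 2.55 CPM in the controls (0.96 ± 0.12, edgeR adjusted p = 4.37e-05). Its exons overlap those of Gpr137 on the other strand by 524 bp. In the libraries labelled RhoA knockout Gpr137 held 105, 221 and 246 counts, against 427, 217 and 157 in the controls. Bad held 3908, 4887 and 4377 counts against 2027, 1499 and 1787. The part of this overlap in the counts of Bad was not tested. Bnip3 and Bnip3l, mitophagy receptors related to the BH3-only proteins, had log2 fold changes of 3.56 ± 0.37 (0.000279) and 1.21 ± 0.19 (0.000244), and Bnip3l is uncertain because its pseudogene copy Bnip3l-ps held up to 20.4% of its count. Pmaip1 (Noxa), a BH3-only partner of Mcl1, did not pass (0.27 ± 0.20, adjusted p = 0.294), nor did Bcl2l12 (0.17 ± 0.79, 0.887) or Bcl2l13 (-0.18 ± 0.23, 0.578), which is uncertain because its transcript shares sequence with the far more abundant Bid.

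Bmf, a BH3-only protein known to be held at the cytoskeleton, was near the limit of counting, its libraries labelled RhoA knockout holding 31, 69 and 56 counts and its controls 20, 0 and 0. Its fitted log2 fold change of 2.78 ± 1.28 did not pass (edgeR adjusted p = 0.102), but passed with the DESeq2 Wald test (2.85, 0.0468) and without control replicate 1 (8.52, 0.00333), where all controls left are at 0 and the fitted size has no meaning. Of the genes that did not pass the filter, Bcl2l10 and Hrk had no count in a library, where 3 counts correspond to 0.0336 to 0.0513 CPM, and Bcl2a1c, Bok, Bik, Bcl2l14 and Bcl2l15 held at most 22 counts in a library.

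**Figure D4:**
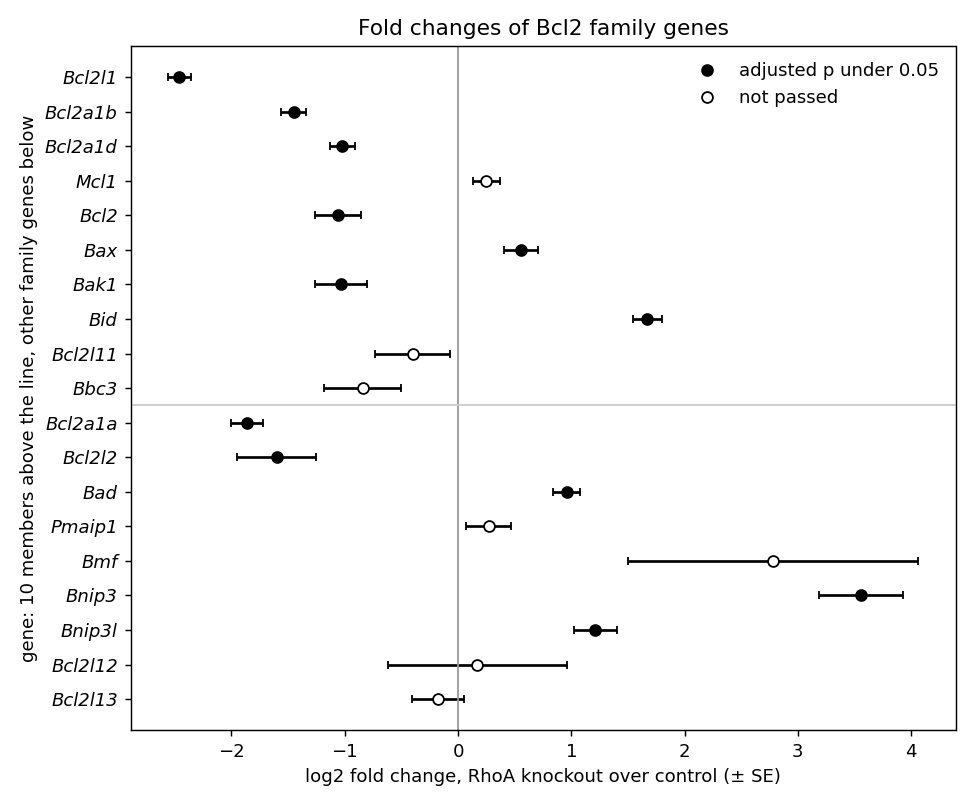
Log2 fold changes of RhoA knockout over control libraries, with bars of ± 1 SE, for the 10 members above the line and the 9 other family genes that passed the filter below it. Filled points passed an edgeR adjusted p of 0.05 and run from -2.46 for Bcl2l1 to 3.56 for Bnip3, and open points did not pass.

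Downstream of the pore, of 13 genes of the apoptosome, the caspases and their inhibitors, 3 were higher, 2 lower and 8 not called, with a median log2 fold change of -0.05, while 43.2% of all genes tested were called. Apaf1, the scaffold of the apoptosome, fell to 0.950 ± 0.274 CPM, against 2.91 ± 0.590 CPM in the controls (SD, n = 3 each; -1.61 ± 0.34, edgeR adjusted p = 0.00229), and Xiap, the caspase inhibitor, to 3.47 ± 0.544 CPM against 8.19 ± 1.57 CPM (-1.24 ± 0.22, 0.000582). Proteins released from mitochondria were among the rises: Htra2 had a log2 fold change of 0.78 ± 0.12 (0.000234) and Aifm1 of 0.75 ± 0.13 (0.000615).

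Of 14 transcription factors tested that are known to act on family genes, 9 were lower, 1 higher and 4 not called, with a median log2 fold change of -0.84, while 22.3% of all genes tested were lower. Rel and Nfkb1, NF-kB subunits, fell to 2.41 ± 0.136 CPM, against 11.9 ± 1.44 CPM in the controls, and to 10.3 ± 2.48 CPM against 37.2 ± 3.75 CPM (SD, n = 3 each; edgeR adjusted p = 1.24e-06 and 4.96e-06). Stat3, which relays cytokine signals, had a log2 fold change of -1.71 ± 0.20 (2.91e-05). The 1 that rose was Trp53, which encodes p53, at 46.8, 47.6 and 57.6 CPM, against 19.7, 17.3 and 15.2 CPM in the controls (1.54 ± 0.14, 2.73e-06). The part of these factors in the levels of family genes was not tested.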

How the data were processed

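The authors deposited 1 table of whole-number counts per gene, without normalization, for 6 libraries. Per the submitters' processing notes the build was GRCm38. The sources used here give no aligner, counter or strand setting. Columns were matched to samples by name, and 0 were left out. Of the gene IDs, 55227 matched GENCODE M21 without their version, and coordinates and exon lengths are from that release. The members and gene lists were chosen with earlier results of these data known.

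Groups were compared with edgeR 4.0.16 in R 4.3.3 (TMM, filterByExpr, robust quasi-likelihood fit, Benjamini-Hochberg over 12930 genes, threshold 0.05). The procedure was also run on simulated data. Far fewer genes changed there than were called here, so that run cannot show its error rate under these conditions. DESeq2 1.42.0 was an alternative, as were other scalings, filters, a length offset, a replicate block and leaving out libraries. SE is the log2 fold change over the square root of F. All 10 members and 16 other family genes were named by rule, with up to 4 called genes with the smallest p from each of 4 further lists. The result of 1 gene that this rule names is not reported here. Copies of family genes were sought with blastn 2.17.0 (at least 95% identity over 200 bp), and a tested gene was called uncertain where one held at least 10% of its count. Likeness used log2(CPM + 0.5), for genes of average log2 CPM of 3 or more. Promoter sequences are those of RefSeq.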

Additional observations from a re-analysis of the deposited data

How the results depend on the processing

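Under the alternatives tried for all genes, 6 to 8 of the 10 members were called. The number called ran from 6 to 8 over the 6 fits that leave out 1 library, the number higher from 1 to 3 and the number lower from 5 to 6. Bax was the member lost, without control replicate 1 or 2, where 1 member was called higher, and Mcl1 and Bbc3 were those gained. Bcl2, Bcl2l1, Bcl2a1b, Bcl2a1d, Bak1 and Bid kept their direction and call in all 16 alternatives run for them. Scaling by library totals in place of TMM gave 59.8% of calls as higher in place of 48.5%, and a median over all genes of 0.15 in place of -0.03. With the length offset several falls in the further lists were smaller in size: Usp9x was at -0.95 in place of -1.53, Itpr2 at -1.20 in place of -1.77 and Nfkb1 at -1.36 in place of -1.85. Stat3 was at -1.32 and Xiap at -0.84. The falls of Bag1 (-2.02), March5 (-1.61) and Mapk3 (-0.94) were larger in size with that offset. Members that did not pass, or other genes of the family, turned in sign as follows. Bcl2l11 was at 0.03 without both libraries numbered 3. Bcl2l13 was at 0.02 with library totals, 0.19 with the length offset and 0.02 without both libraries numbered 3. Bcl2l12 was at -0.03 with the length offset, and, over the fits that leave out 1 library, between -0.34 and 0.70, with -0.10 without RhoA knockout replicate 3 and -0.34 without control replicate 2. The causes were not tested. Same-numbered libraries had correlations of their deviations of -0.010, 0.028 and 0.006, so no pairing was seen over all genes tested. These correlations cannot exclude a pairing that touches only some genes. With a block for the replicate number Bax was at 0.56 ± 0.09 (SE, edgeR adjusted p = 0.00117). With the replicate block 8 members were called, Bbc3 (-0.90, adjusted p = 0.0361) in addition to the 7, and 5372 genes against 5592.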

Other observations

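Of 16 genes whose proteins bind family members, 15 passed the filter. Of these 7 were higher, 4 lower and 4 not called, with a median log2 fold change of 0.22. Of all genes tested, 21.0% were higher and 22.3% lower. Bcap31, an endoplasmic reticulum protein that binds Bcl2, stood at 354 ± 43.9 CPM in the libraries labelled RhoA knockout and 142 ± 7.96 CPM in the controls (SD, n = 3 each; edgeR adjusted p = 3.19e-06). Vdac2, a channel that holds Bak1 at the mitochondrial membrane, stood at 280.4 ± 8.39 CPM against 172 ± 4.35 CPM (0.00011). Bag1, a chaperone cofactor that binds Bcl2, had a log2 fold change of -1.81 ± 0.14 (1.02e-06), and Itpr2, a calcium channel of the endoplasmic reticulum, of -1.77 ± 0.17 (5.69e-06).

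Of 11 genes of the turnover of Mcl1 and Bim proteins, 10 passed the filter. By edgeR 5 were lower, 0 higher and 5 not called, with a median log2 fold change of -0.43. The number higher was 0 also at an unadjusted p under 0.05 and with DESeq2. Of all genes tested, 22.3% were lower and 21.0% higher. Over the alternatives 4 to 6 of these turnover genes were lower and 0 higher, but with the exon length offset 1 was higher at an unadjusted p under 0.05. Usp9x, a deubiquitinase of Mcl1, stood at 7.85 ± 0.826 CPM in the libraries labelled RhoA knockout and 22.6 ± 1.11 CPM in the controls (SD, n = 3 each; edgeR adjusted p = 2.92e-06). March5, a mitochondrial ubiquitin ligase, had a log2 fold change of -1.45 ± 0.25 (0.000558). Mapk3, a kinase that marks Bim for degradation, had a log2 fold change of -0.76 ± 0.15 (0.00126).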
